A study of Mus musculus with 6 samples.

Results

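The transcripts described are 10 markers used to tell classical brown, beige and white adipocytes apart: Zic1, Lhx8, Ebf2, Tbx1, Tnfrsf9, Cited1, Tmem26, Hoxc8, Hoxc9 and Dio2. They were taken by gene symbol from the annotation of an Affymetrix mouse array, which named 9 of the 10, through 15 probe sets, among 12394 named genes. Tmem26, a membrane protein used as a beige marker, was named by no probe set of that annotation and was skipped. The RNA was that of whole subcutaneous white fat from mice; its label IWAT is taken here to mean the inguinal depot. The YY1bKO group (3 arrays) carried floxed alleles of Yy1, which encodes a zinc finger transcription factor, with a Cre recombinase driven by Ucp1 sequences, and the control group (3 arrays) carried the floxed alleles without it. Animals of both groups were 8 weeks old, of mixed C57BL6 and 129 background, and had been on a high fat diet for the last 2 weeks. Ucp1 sequences drive Cre mainly in thermogenic adipocytes of every depot, the labels list no mice with Cre and without floxed Yy1, and whole tissue cannot tell fewer cells of a type from less RNA per cell. Nothing in the labels states that arrays came from separate animals, so p-values measure the spread between these arrays.

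Classical brown adipocytes fill the interscapular depot and arise from embryonic precursors that share a history with skeletal muscle. Beige adipocytes appear within white depots such as inguinal fat on cold or adrenergic stimulation, from other precursors, and also use the uncoupling protein Ucp1. Because Ucp1 and many other thermogenic genes serve both cell types, developmental transcription factors and surface proteins such as those described here are used to say which kind is present, and Hox genes record the position of a depot along the body axis.

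No lineage marker passed the test between YY1bKO and control fat, although Ucp1 in the same arrays was far higher in YY1bKO. Ucp1 had log2(intensity + 1) values of 10.65, 11.01 and 10.91 in YY1bKO arrays, against 5.71, 5.67 and 5.43 in control arrays, a log2 difference of 5.25 ± 0.14 (SE; limma adjusted p = 1.91e-04). The control values of Ucp1 lay close to the array floor described below, so the size of its rise is not exact. Of the 9 measured markers, 0 had a limma p under 0.05 after Benjamini-Hochberg adjustment over all genes, where 0.0323% of all genes did. At an unadjusted limma p under 0.05, 1 marker, Ebf2, was higher in YY1bKO and 0 were lower, where 8.45% of all genes were higher and 1.99% lower. Ebf2 was also the only one of the 9 whose groups did not overlap with YY1bKO higher, as in 11.5% of all genes, and 0 lay apart with YY1bKO lower, as 5% of all genes did. All 9 log2 differences were above 0, from 0.02 for Tnfrsf9 to 0.91 for Ebf2, with a median of 0.16, while the median over all genes was 0.00463 and 51% of genes had a difference above 0. By the brightest of its 4 probe sets, Yy1 itself had log2 values of 10.13, 10.41 and 10.20 in YY1bKO arrays, against 10.33, 10.52 and 10.62 in control arrays (limma adjusted p = 0.574). The other Yy1 probe sets are not given here. The sources used here do not place this probe set relative to the deleted part, so it checks the labels only in part.

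**Figure D1:**
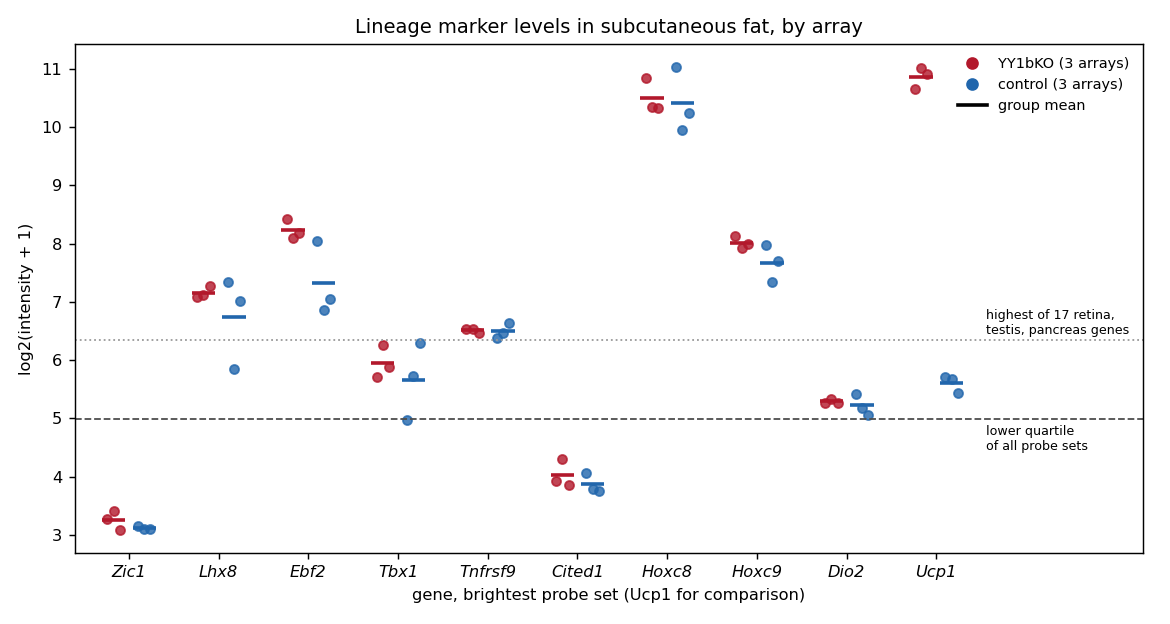
Levels of the 9 measured lineage markers and of Ucp1, as log2(intensity + 1) of the brightest probe set. Each point is an array, red for YY1bKO and blue for control, bars are group means, the dashed line is the mean lower quartile of the arrays (4.99) and the dotted line the highest of 17 genes restricted to retina, testis or pancreas (6.35). Zic1 and Cited1 lie below the dashed line in both groups, while the groups of Ucp1 are far apart.

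Whether a marker can be read at all depends on its distance from the array floor. RMA leaves no true 0 in such data, so the floor was described by 2 values on the log2(intensity + 1) scale. The first was the lower quartile of all probe sets, which averaged 4.99 over the 6 arrays. The second was the highest median among 17 genes normally restricted to retina, testis or pancreas, which was 6.35. A probe set below either value was taken as near the floor. By that rule 4 of the 9 markers were near it by their brightest probe set: Zic1 and Cited1 lay below the lower quartile, and Tbx1 and Dio2 between both values. Tnfrsf9, with a mean of 6.51 in YY1bKO and 6.49 in control, lay just above the second value. Lhx8, Ebf2, Hoxc8 and Hoxc9 lay clear of it on average, although the Lhx8 value of control replicate 2 (5.85) did not. Intensities of different probe sets are not amounts of RNA and were not compared with each other beyond this.

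Of the classical brown markers, Zic1, a zinc finger factor of neural and dorsal mesodermal development, stayed at the floor in both groups. Its intensities were 8.7, 9.6 and 7.5 in YY1bKO arrays, against 7.9, 7.6 and 7.6 in control arrays, where lower quartiles ran from 29.9 to 31.7. Its mean stood at percentile 1.13 of all probe sets, and 0 of the 6 arrays rose above their lower quartile. The log2 difference of 0.14 ± 0.11 (SE; 95% interval -0.13 to 0.40) is therefore a difference between values at the floor.

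Lhx8, a LIM homeobox factor of forebrain and tooth development that is also transcribed in interscapular brown fat, gave a readable signal in both groups. Its log2 values were 7.07, 7.11 and 7.27 in YY1bKO arrays, against 7.34, 5.85 and 7.02 in control arrays. The groups overlapped, the highest value of all being that of control replicate 1 and the lowest that of control replicate 2. The log2 difference was 0.42 ± 0.38 (SE; 95% interval -0.50 to 1.34; limma adjusted p = 0.757). Without control replicate 2 it was -0.03, so 1 array set the direction.

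Ebf2, an early B cell factor family member that marks brown and beige preadipocytes and helps PPARγ to bind at brown fat genes, had the largest difference of the 9 markers. Its brightest probe set (1418494_at) had log2 values of 8.42, 8.09 and 8.17 in YY1bKO arrays, against 8.04, 6.86 and 7.05 in control arrays. The YY1bKO arrays lay close together, while control replicate 1 lay only just below them and the other control arrays well below. The mean was 8.23 ± 0.17 in YY1bKO and 7.32 ± 0.64 in control (SD, n = 3 each), a 1.88-fold difference on this scale. The log2 difference was 0.91 ± 0.32 (SE; 95% interval 0.14 to 1.68) and did not pass (limma adjusted p = 0.409). An exact 2-sided permutation test gave p = 0.1, the smallest that 3 against 3 arrays allow.

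The other probe sets of Ebf2 gave differences of similar size. Probe set 1449102_at had log2 values of 7.63, 7.22 and 7.39 in YY1bKO arrays, against 7.12, 6.09 and 5.93 in control arrays, a log2 difference of 1.04 ± 0.32 (SE). Its values in control replicates 2 and 3 lay below the second floor value. Probe set 1449101_at was near the floor as a whole, with a mean of 5.29, and its control values of replicates 2 and 3 lay below the lower quartile. It had 5.93, 5.41 and 5.64 in YY1bKO arrays, against 5.51, 4.66 and 4.57 in control arrays, a difference of 0.75 ± 0.28 (SE). In a limma fit over 20393 probe sets with 1 gene symbol, the adjusted p of the 3 was 0.443, 0.389 and 0.474, none under 0.05, which 0.0294% of those probe sets reached, and each had an unadjusted p under 0.05, where 9.74% did. The 3 probe sets measure the same RNA and are not replicates of the condition. In all 3, control replicate 1 was the highest control array, and in 1449101_at it was above YY1bKO replicate 2.

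The size of the Ebf2 difference depended on the control arrays. It was 1.27 without control replicate 1 (limma adjusted p = 0.115), 0.68 without control replicate 2 and 0.78 without control replicate 3 (adjusted p = 0.572 and 0.58). With both control replicate 2 and YY1bKO replicate 1 left out, a setting added once the values were seen, it was 0.58 (limma adjusted p = 0.9). After quantile normalization of the log2 values, or subtraction of array medians, the Ebf2 groups overlapped. Then 0 of the 9 markers lay apart, beside 16.3% and 15.8% of all genes.

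**Figure D2:**
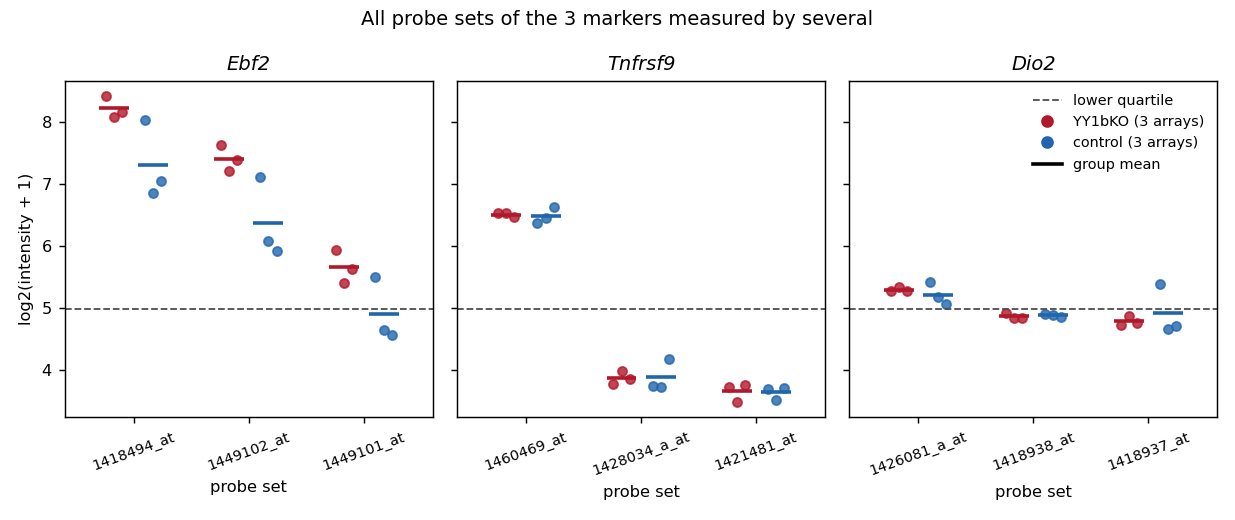
All probe sets of Ebf2, Tnfrsf9 and Dio2 as log2(intensity + 1), with YY1bKO arrays in red and control arrays in blue, group means as bars and the mean lower quartile (4.99) as a dashed line. Control replicate 1 is the highest control array in all 3 Ebf2 probe sets, while 2 of the 3 probe sets of Tnfrsf9 and of Dio2 lie below the dashed line.

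Of the beige markers, Tbx1, a T-box factor of pharyngeal and cardiac development, was near the floor and varied more within groups than between them. Its log2 values were 5.71, 6.26 and 5.89 in YY1bKO arrays, against 4.98, 5.73 and 6.29 in control arrays. The control arrays held both the lowest and the highest value. The log2 difference was 0.29 ± 0.34 (SE; 95% interval -0.55 to 1.12; limma adjusted p = 0.823), and -0.06 without control replicate 1. Within each group the order of the arrays in Tbx1 was that of the B cell and T cell marker lists described below, and their part in its values was not tested.

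Tnfrsf9, also called CD137 and known both as a surface marker of beige precursors and as a costimulatory receptor of activated T cells, had nearly the same level in both groups. Its brightest probe set (1460469_at) had intensities of 91.4, 91.7 and 87.5 in YY1bKO arrays, against 81.7, 87.2 and 98.8 in control arrays. The control arrays spanned the YY1bKO values. On the log2 scale the difference was 0.02 ± 0.10 (SE; limma adjusted p = 0.964), and its 95% interval ran from -0.23 to 0.27. The other probe sets, 1428034_a_at and 1421481_at, had intensities from 10.2 to 14.8 in YY1bKO arrays and from 10.4 to 17.2 in control arrays. All lay below the lower quartile of their array. Only 1460469_at lay above both floor values, just above the second, and whether it reads Tnfrsf9 RNA or background was not tested.

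Cited1, a transcriptional coactivator without a DNA-binding domain that is used as a beige marker, was at the floor. Its intensities were 14.2, 18.8 and 13.5 in YY1bKO arrays, against 15.7, 12.8 and 12.5 in control arrays, with 0 of 6 arrays above their lower quartile. The log2 difference was 0.16 ± 0.16 (SE; 95% interval -0.22 to 0.55; limma adjusted p = 0.776).

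Hoxc8 and Hoxc9, neighbouring homeobox genes that mark posterior position and are used as markers of subcutaneous white fat, were readable in all 6 arrays. Hoxc8 had log2 values of 10.85, 10.34 and 10.33 in YY1bKO arrays, against 11.03, 9.95 and 10.24 in control arrays, and its mean stood at percentile 91.2 of all probe sets. Replicate 1 was the highest of its group in both, and the groups overlapped, with a log2 difference of 0.10 ± 0.31 (SE; 95% interval -0.64 to 0.85; limma adjusted p = 0.936). That difference was -0.07 without YY1bKO replicate 1 and -0.13 without control replicate 2. Hoxc9 had log2 values of 8.12, 7.93 and 7.99 in YY1bKO arrays, against 7.98, 7.34 and 7.70 in control arrays. Only control replicate 1 reached into the YY1bKO range, and the log2 difference was 0.34 ± 0.17 (SE; 95% interval -0.08 to 0.76; limma adjusted p = 0.58). Without control replicate 1 it was 0.49 and had an unadjusted limma p under 0.05, as 17.8% of all genes did in that fit, and its adjusted p over all alternatives ran from 0.197 to 0.979.

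**Figure D3:**
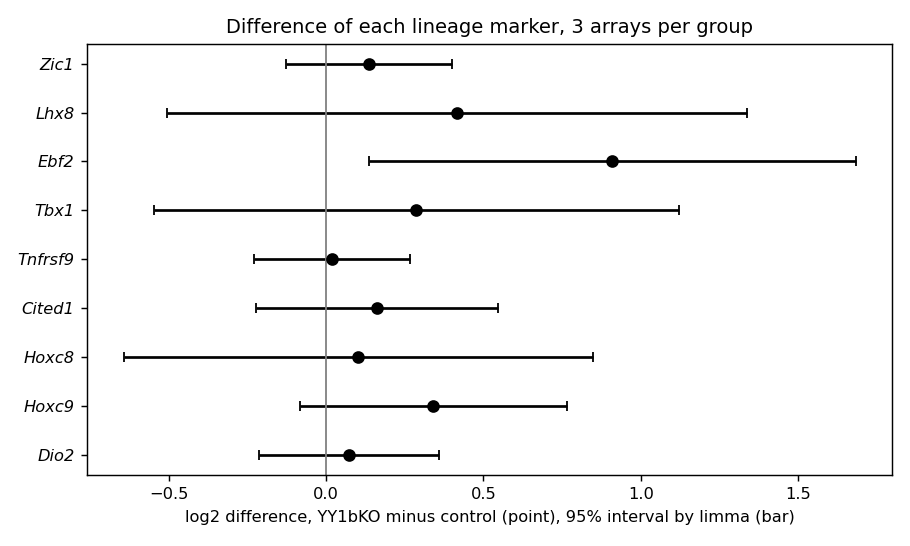
Log2 difference, YY1bKO minus control, of the 9 measured markers (points) with 95% intervals from limma (bars). The interval of Ebf2 (0.14 to 1.68) alone lies above 0 before adjustment, and those of Tnfrsf9, Dio2 and Zic1 end at 0.27, 0.36 and 0.40. Zic1 and Dio2 were near the floor and Tnfrsf9 only just above it, so these ends do not bound a change of RNA.

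Dio2 encodes the type 2 deiodinase, a selenoprotein that turns thyroxine into active triiodothyronine inside the cell. In brown fat it is known as a gene that cyclic AMP signalling induces beside Ucp1, through a cAMP response element near its start. Its RefSeq promoter window (GRCm38.p6, chr12:90738989-90739288, minus strand, 300 bases, of which 250 lie before the start) is shown since the gene is set against Ucp1 here. The capitals mark the full cAMP response element TGACGTCA, 95 to 88 bases before the annotated start:

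Dio2: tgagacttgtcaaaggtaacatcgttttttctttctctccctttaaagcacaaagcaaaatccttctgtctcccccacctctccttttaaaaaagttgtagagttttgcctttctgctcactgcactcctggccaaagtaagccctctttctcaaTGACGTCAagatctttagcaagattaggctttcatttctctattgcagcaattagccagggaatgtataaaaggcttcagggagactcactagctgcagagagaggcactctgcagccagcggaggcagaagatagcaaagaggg

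That element, searched on both strands, which read alike, was found in 1.79% of 32851 promoter windows, and in 1 of the 11 windows that the table holds for 7 of the 10 markers. The YY1 core motif CCATNTT, or AANATGG on the other strand, was found in 16.1% of all windows and in 1 of those 11, a window of Tbx1. The window of Ucp1, searched in the same way, held neither motif. A match is a run of letters and does not show that a factor binds, and no match speaks only of this window. The table had no window for Ebf2, Hoxc8 and Hoxc9.

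The brightest Dio2 probe set (1426081_a_at) had intensities of 37.6, 39.4 and 37.6 in YY1bKO arrays, against 41.9, 35.1 and 32.4 in control arrays. All 3 YY1bKO values fell inside the control range. The difference on the log2 scale was 0.07 ± 0.12 (SE; 95% interval -0.21 to 0.36; limma adjusted p = 0.868). The other Dio2 probe sets, 1418938_at and 1418937_at, had log2 differences of -0.01 and -0.13. Of their 12 values, 11 lay below the lower quartile of their array, the exception being control replicate 1 in 1418937_at (41.1). All 3 lay below the highest gene restricted to retina, testis or pancreas, so a change of Dio2 within the compressed low range may not be visible.

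The arrays differed in what other tissue their RNA showed, and this moved with some of the markers. The 9 skin epithelium genes had a summed intensity of 12846 in control replicate 2. The sum was 341.7 to 380.9 in the YY1bKO arrays and 307.6 and 349.5 in the other control arrays. Each of the 9 but Krt1 had its highest value in control replicate 2, Krt14 (12.45) and Dsp (11.99) standing highest on the log2 scale. Krt1 was below the lower quartile in that array (4.22). The 10 mammary epithelium genes summed to 4671 in the same array, against 243.8 to 475.8 in YY1bKO and 239.1 and 266.7 in the other controls. Epcam, Cdh1, Krt8, Krt18 and Elf5 were high there, while Krt19 and the milk protein genes Csn2, Csn3, Lalba and Wap were below the lower quartile in that array. That array held the lowest value of 4 of the 9 markers (Lhx8, Ebf2, Hoxc8 and Hoxc9), as it did of 27.9% of all genes, and the lowest sum of the 6 adipocyte genes (61401, against 74274 to 80788 in YY1bKO and 66141 and 80159 in the other controls). The 6 mesenchymal progenitor genes had their lowest sum there too (14183), with 18238 to 21119 in YY1bKO and 16295 and 24568 in the other controls.

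Lymphocyte genes ran in another order. The 5 B cell genes summed to 115.1, 3385 and 1218 in YY1bKO arrays, against 160.1, 2799 and 7273 in control arrays, and the 8 T cell genes to 514.1, 2486 and 1400 in YY1bKO arrays, against 561.6, 1950 and 4105 in control arrays. Replicate 1 of each group was thus lowest in lymphocyte genes, and it was highest in its group for Ebf2, Hoxc8 and Hoxc9, while for Lhx8 it was the highest control array and the lowest YY1bKO array. The 10 skeletal muscle genes summed to 6026, 1701 and 2924 in YY1bKO arrays, against 1688, 982.7 and 1212 in control arrays. As the mean of the 10 genes, centred on the 6 arrays, that list stood at 2.45, -0.56 and -0.45 in YY1bKO arrays, against -0.25, -0.59 and -0.61 in control arrays, so YY1bKO replicate 1 alone stood apart across the list. Acta1, skeletal muscle actin, and Myl1, a myosin light chain, made up most of the sums in the other YY1bKO arrays. Log2 values there were 9.04 and 10.62 for Acta1 and 9.84 and 10.12 for Myl1. In control arrays Myl1 had 10.01, 8.96 and 9.28. Acta1 had 8.29, 7.51 and 8.22, so it was higher in every YY1bKO array than in any control array, as 11.5% of all genes were. No probe set reads 0 on these arrays, and the part of any of these tissues in the marker differences was not tested. All 6 adipocyte genes were above the lower quartile, with Adipoq at 14.29, 14.15 and 14.18 in YY1bKO and 14.24, 13.96 and 14.05 in control on the log2 scale, so the defining gene of the labelled tissue was present in every array.

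**Figure D4:**
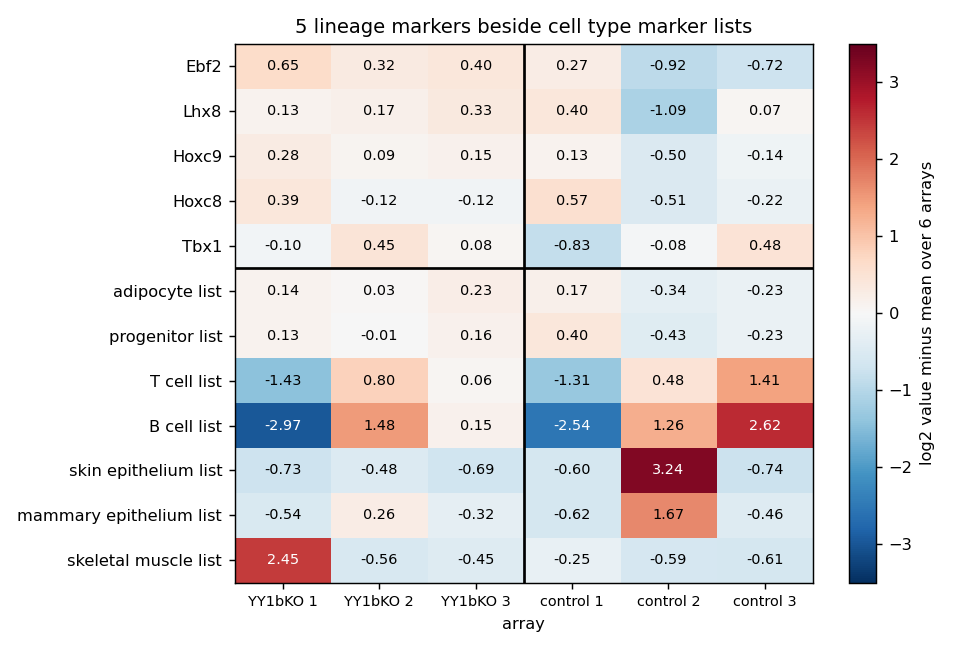
Each cell gives an array's log2 value minus the mean over 6 arrays, for 5 lineage markers (top) and for the mean of each cell type marker list (bottom), YY1bKO arrays on the left. Control replicate 2 is lowest in Ebf2, Lhx8, Hoxc9 and Hoxc8 and stands at 3.24 in the skin list and 1.67 in the mammary list, and replicate 1 of both groups is lowest in the B cell list (-2.97 in YY1bKO and -2.54 in control).

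The spread among control arrays was the wider in 7 of the 9 markers, as in 74% of all genes. The median SD of the 9 was 0.16 in YY1bKO and 0.32 in control on the log2 scale, beside 0.12 in YY1bKO and 0.19 in control over all genes. Pattern likeness was measured for the 6 markers above the lower quartile on all arrays, as Pearson's r over the 6 arrays with each of 6197 genes above the median level. The genes most like Ebf2 were Aqp7, the glycerol channel of adipocytes, at 0.997, Yaf2 at 0.993 and Adhfe1 at 0.993. Those most like Hoxc8 were Podxl, Enpep and Extl2, and those most like Hoxc9 were Pcca, Ifi27l2a and Bpgm, with r from 0.987 to 0.999. H2-D1, Acp2 and Scarb2 were most like Lhx8, Fam117a, Nol7 and Psmb9 most like Tnfrsf9, and Myl12a, Egfr and L3hypdh most like Dio2, where r was at most 0.96. With 6 arrays that share tissue makeup, and so many genes to choose from, such values describe the arrays only.

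Other genes used as brown lineage markers also included both unreadable and readable ones. Of 12, 0 passed by limma over all genes, as 0.0323% of all genes did, and the median log2 difference was 0.16. At an unadjusted limma p under 0.05, 3 were higher and 0 lower, beside 8.45% and 1.99% of all genes. The precursor factors Myf5, Pax3, Pax7 and En1 all had means below the lower quartile. Pdk4, a kinase that shuts pyruvate dehydrogenase in the fasted or fat-burning state, had 12.12, 12.44 and 12.49 in YY1bKO arrays, against 10.55, 11.06 and 10.22 in control arrays (log2 difference 1.74 ± 0.23, SE; limma adjusted p = 0.128). Hspb7, a small heat shock protein of heart and muscle, had a difference of 0.73 for its brightest probe set, near the floor, and 0.08 for its lowest, Fbxo31, a ubiquitin ligase subunit, 0.54, and Slc29a1, a nucleoside transporter, 0.28. Mpzl2, an epithelial adhesion protein, was 9.18 in control replicate 2 and from 4.98 to 7.27 in the other 5 arrays. Mpzl2 was chosen after its values were seen.

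Among 10 other beige marker genes, 0 passed by limma over all genes, 4 were higher and 0 lower at an unadjusted p under 0.05, beside 8.45% and 1.99% of all genes, and the median was 0.34. Those 4 were Slc27a1, a fatty acid transport protein (10.42 in YY1bKO and 9.22 in control, limma adjusted p = 0.147), Aqp7 (0.83), Car4, a membrane carbonic anhydrase (0.91), and Pdgfra, a receptor of adipocyte progenitors (0.43). The first 3 are also transcribed in white adipocytes or capillaries, and P2rx5, a purinergic receptor used as a brown and beige surface marker, had 6.46 in YY1bKO and 6.55 in control (limma adjusted p = 0.908). P2rx5 was likewise chosen after its values were seen. Of 10 white lineage genes, 0 passed by limma, 2 were higher and 0 lower at an unadjusted p under 0.05, beside 8.45% and 1.99% of all genes, with a median of 0.24. Nnat, neuronatin, had a difference of 0.95 and Agt, angiotensinogen, of 0.83, beside 0.33 for Retn, resistin, and 0.48 for Slc7a10, the white adipocyte amino acid transporter ASC-1.

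Positional identity was followed through 29 other Hox genes, of which 12 had means below the lower quartile. Of these 29, 0 passed by limma, 3 were higher and 0 lower at an unadjusted p under 0.05, a share near the 8.45% of all genes that were higher, and the median log2 difference was 0.04. Hoxa5, Hoxa2, Hoxb4 and Hoxb2 had the smallest p, with differences of 0.36, 0.26, 0.40 and 0.37, and by their means over all arrays Hoxa2 and Hoxb4 lay near the floor. The other Hoxb4 probe set had a difference of 0.15. Groups did not overlap with YY1bKO higher in 7 of the 29, beside 11.5% of all genes, and with YY1bKO lower in 0, beside 5%. Of those 7, Hoxa2, Hoxa4 and Hoxd12 lay below the lower quartile in every array, and Hoxb4 was near the floor. Hoxd10 and Hoxa9, chosen after their values were seen, had the most negative differences of the list, -1.30 and -0.93. Hoxd10 was 8.24 in control replicate 2 and from 4.52 to 5.06 in the other 5 arrays, and Hoxa9 was 10.85 in control replicate 2 and from 8.00 to 8.61 in the others, so both rest on the array with the high epithelial sums.

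Regulators of brown and beige fate were measured through 19 genes. Of these, 0 passed by limma, 4 were higher and 0 lower at an unadjusted p under 0.05, beside 8.45% and 1.99% of all genes, and the median was 0.24. They were Bmp4, a morphogen of adipocyte commitment (0.56), Ppargc1a, the coactivator of mitochondrial biogenesis (0.92, near the floor), Ppara, a nuclear receptor of fat oxidation (0.97), and Foxc2, a forkhead factor (0.26, below the lower quartile). The 5 probe sets of Ppargc1a gave differences from 0.50 to 1.17. Prdm16, Zfp516, Ehmt1 and Klf11 were not measured by a probe set of their own in the annotation. Of 15 genes around Dio2 in thyroid hormone action, 0 passed by limma and 1 was higher at an unadjusted p under 0.05, a share near the 8.45% of all genes. This was Thrsp, a lipogenic gene that responds to thyroid hormone, with a difference of 0.85 ± 0.11 (SE; limma adjusted p = 0.129). Ncoa1, a receptor coactivator, Usp20, a deubiquitinase of Dio2, and the receptor Thrb followed with 0.16, -0.14 and -0.13, and the list's median was 0.05. The other Usp20 probe set had a difference of 0.057.

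Of 8 measured effectors of thermogenesis 2, Ucp1 and Fabp3, a fatty acid binding protein of oxidative tissue, passed by limma, as 0.0323% of all genes did, and 6 of the 8 had an unadjusted p under 0.05 with YY1bKO higher, beside 8.45% of all genes. Fabp3, like Ucp1, had a control mean close to the floor (5.45). The median log2 difference of these effectors was 1.86, beside 0.16 for the 9 lineage markers. That 0.16 was the difference of Cited1, which was at the floor, as was Zic1, with Tbx1 and Dio2 near it. With the filter at percentile 50, which kept Ebf2, Hoxc8 and Hoxc9, the marker median was 0.34. The effector list was assembled knowing earlier results of these arrays, so neither its count nor its median is independent evidence.

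**Figure D5:**
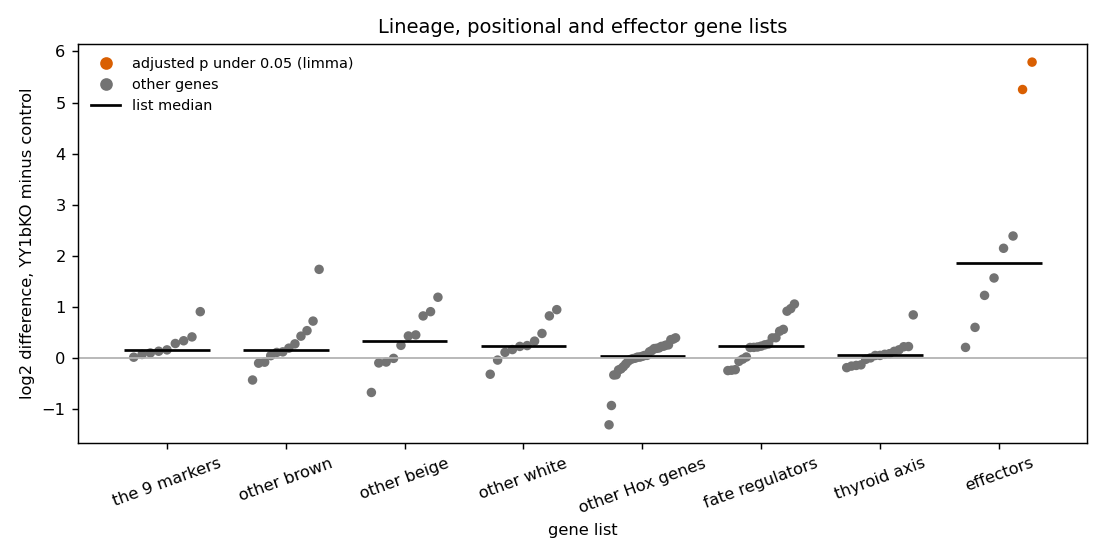
Log2 differences, YY1bKO minus control, of every measured gene in 8 lists, with list medians as lines and the genes past a limma adjusted p of 0.05 in orange. Both orange points, Ucp1 and Fabp3, are effectors, whose median is 1.86, and the medians of the 7 other lists lie between 0.04 and 0.34. Among the lineage markers Zic1, Cited1, Tbx1 and Dio2 lie near the floor. The effector list was assembled knowing earlier results of these arrays.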

How the data were processed

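Subcutaneous fat RNA was extracted with Trizol, biotin-labelled and hybridised to Affymetrix arrays, per the labels' protocols. The deposited intensity values are 1 per probe set and array, made with RMA per the submitters' processing notes. The sources used here name no version of it. That the values are linear was inferred from their range (5.4 to 25730). Medians per array ran from 123.15 to 130.35.

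Of 22690 probe sets, 20393 had 1 symbol in the platform annotation, 691 several and 1606 none. The last 2 kinds were not used. Each of the 12394 genes was represented by its brightest probe set over all 6 arrays. The test, limma 3.58.1 under R 4.3.3, was run on log2(intensity + 1), 2-sided, with Benjamini-Hochberg adjustment over all genes and a threshold of 0.05. Fold changes on this scale understate the change of dim genes. The number of arrays limits the precision.

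Members, lists and tests were chosen with earlier results of these data known. Named were all members, Ucp1 and Yy1, and up to 4 genes of smallest p per list, with exceptions stated. Marker lists cover adipocytes, progenitors, B and T cells, skin and mammary epithelium and skeletal muscle. The alternatives changed scaling, pseudocount, filter, probe set choice, variance model, array weights, the replicate block and the arrays used.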

Additional observations from a re-analysis of the deposited data

How the results depend on the processing

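Under the 18 alternatives, 0 of the 9 markers passed an adjusted p of 0.05 by limma. The lowest adjusted p, 0.115, was that of Ebf2 without control replicate 1. Ebf2 and Hoxc9 differences stayed above 0 in all 18, from 0.58 to 1.27 and from 0.12 to 0.49. Those of Zic1 and Cited1, both at the floor, also stayed above 0 in the 16 that kept them. They ran from 0.05 to 0.22 and from 0.02 to 0.26, so a stable sign is not particular to readable markers. Of 153 marker differences under alternatives, 143 kept their direction and 10 changed sign, with sizes up to 0.30. Dio2 was -0.025 with the mean of all probe sets, Tnfrsf9 -0.018 with array weights, and without control replicate 2 and YY1bKO replicate 1 together Tnfrsf9 was -0.0043 and Hoxc8 -0.30. Leaving out 1 array at a time gave ranges of -0.13 to 0.41 for Hoxc8, -0.056 to 0.60 for Tbx1, -0.041 to 0.094 for Tnfrsf9, -0.027 to 0.72 for Lhx8 and -0.0060 to 0.17 for Dio2.

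The count of markers at an unadjusted p under 0.05 was 2 with array weights (13.1% of all genes) and 0 without those 2 arrays together (5.45%). Leaving out 1 array it was 0 to 2, beside 5.33% to 17.8% of all genes, and 2 only without control replicate 1 (17.8%). Markers whose groups did not overlap numbered 0 with quantile normalization (16.3% of all genes) and 0 with array medians subtracted (15.8%). Leaving out 1 array they numbered 1 to 6, beside 20.5% to 36.8% of all genes. The 6, without control replicate 1, stood beside 36.8% of all genes in that fit. The median difference was 0.34 with the filter at percentile 50, which kept 3 of the 9 markers (Ebf2, Hoxc9 and Hoxc8), and 0.12 to 0.26 leaving out 1 array. With the replicate block 0 markers passed, the Ebf2 difference was 0.91 (limma adjusted p = 0.304) and 1 of all genes passed, against 4 without it. The labels link same-numbered arrays by number only and do not say whether they were paired. Correlations of their deviations were 0.61, 0.10 and 0.03, and not every array correlated best with its own number. With 3 arrays per group these correlations cannot decide whether arrays were paired. The cause of these changes was not tested. Signal near the background limits Zic1, Cited1, Tbx1 and Dio2, and Tnfrsf9 lay only just above the second floor value.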
